A study of Mus musculus with 10 samples.

Results

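A set of 7 genes of calcium clearance, found by their symbols among the 32285 genes of the count tables, were followed across the cell types of the old mouse cochlea and vestibule. They are the 4 plasma membrane calcium ATPases Atp2b1, Atp2b2, Atp2b3 and Atp2b4, the reticulum pumps Atp2a2 and Atp2a3, and the sodium-calcium exchanger Slc8a1. The genes were chosen by their levels in the same cells, which were known to differ between hair cell (HC) types, so differences between types are given as a description, without a test. All libraries came from wild-type CBA/J mice aged 22 months, with 7 to 8 animals pooled into each, and their groups were the sensory epithelium of the cochlea and that of the vestibular organs. No treatment was given, and mice of other ages were not analysed here. Of 5 replicates per organ, replicates 1 and 2 held the same cells and were counted as 1 sample, since the counts of the barcodes in common varied less between them than sampling alone gives, which left 4 libraries per organ.

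A HC is depolarised by calcium and potassium that enter through the transduction channels of the hair bundle, and further calcium enters through voltage-gated channels at the ribbon synapse. Plasma membrane calcium ATPases use ATP to export this calcium across the plasma membrane, and Atp2b2 (PMCA2) is the pump of the stereocilia, whose loss causes deafness and imbalance in mice. The ATPases of the sarco/endoplasmic reticulum (SERCA), of which Atp2a2 is the widespread and Atp2a3 the more restricted member, load calcium into the store. Slc8a1 (NCX1) trades calcium for sodium at the plasma membrane.

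The 6 ATPases are phosphorylated by ATP, during each transport cycle, on an aspartate of a conserved motif. The coding stretch around it is shown for 4 of them because it is what the pumps share and what separates them from Slc8a1, in which the motif was not found. It was read 5′ to 3′ from GENCODE M21 transcripts (GRCm38), with the 5 codons of the motif in capitals and 5 codons on each side in lower case:
Atp2b1: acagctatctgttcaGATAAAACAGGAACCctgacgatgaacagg
Atp2b2: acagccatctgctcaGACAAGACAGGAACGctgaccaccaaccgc
Atp2b4: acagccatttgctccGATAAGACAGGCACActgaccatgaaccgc
Atp2a3: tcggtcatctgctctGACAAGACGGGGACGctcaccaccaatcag

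Each window shown lies within 1 coding exon. In Atp2b1 it is exon 10 of 21, at chr10:98999802-98999846 on the plus strand, and in Atp2b2 it is exon 13 of 24, at chr6:113789888-113789932 on the minus strand. Exon 10 of 21 holds it in Atp2b4 (chr1:133731798-133731842, minus strand), and exon 8 of 22 in Atp2a3 (chr11:72975591-72975635, plus strand). Of the 45 bases, Atp2b2 and Atp2b4 share 38 (84.4%), the closest of these pairs, and Atp2b1 and Atp2a3 share 27 (60.0%), the most distant. Reads of these 3′ libraries come from the ends of transcripts, and no stretch of 31 bases in the last 500 bases was shared by any pair of the 7 genes. Slc8a1 lies at chr17:81373105-81738377 on the minus strand.

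Cells were kept with at least 200 genes, 1000 UMIs (unique molecular identifiers, each counting 1 captured transcript) and under 25% mitochondrial UMIs, which left 571 to 5070 cells per cochlear library and 867 to 5438 per vestibular library. Libraries held 2738036 to 26974948 UMIs in all barcodes, and replicate 3 was the largest in both organs. HC clusters were named from Myo6, Myo7a, Pou4f3, Tmc1, Kncn and Gfi1, after the 7 genes had been removed from the genes used for clustering. The cochlea gave 77 outer hair cells (OHCs), 42 inner hair cells (IHCs) and 33 HCs of unnamed type, together the cochlear HCs (cHCs). The vestibule gave 1501 type I and 273 type II HCs, together the vestibular HCs (vHCs). The labels fitted their markers: Slc26a5, the OHC motor protein, had a UMI in 84.4% of OHCs and in 0 of 42 IHCs, Slc17a8, the IHC glutamate transporter, had one in 100% of IHCs and 6.49% of OHCs, and Adam11 had one in 92.4% of cells of the largest type I subcluster. Cells with markers of both HCs and other classes (70 cochlear, 228 and 274 vestibular) were left out of the HCs. Levels are UMIs per 1000000 UMIs (CPM) of a population in a library, with the mean ± SD over libraries with at least 5 of its cells. As a transcript is counted once whatever its length, CPM was compared between genes without a correction for length. Other differences between genes in how well their transcripts are captured were not checked.

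Atp2b2 was the leading plasma membrane pump of type I HCs and of OHCs. In type I HCs its level was 1754, 1463, 1860 and 1656 CPM in replicates 1, 3, 4 and 5, or 1683 ± 169 CPM (SD, n = 4 libraries), the highest mean of the 23 named populations. In OHCs it was 1052, 606, 1058 and 658 CPM (843 ± 245), and in type II HCs 315.5, 169, 251 and 215 CPM (238 ± 61.7). Every type I library lay above every OHC library, and every OHC library above every type II library. In IHCs Atp2b2 was close to absent: the 42 cells held 3 UMIs, 1 in replicate 3 (3.13 CPM) and 2 in replicate 4 (26.2 CPM). Atp2b2 had a UMI in 96.9% of type I HCs, 80.5% of OHCs, 40.3% of type II HCs and 4.76% of IHCs, against 1.57% of cochlear and 4.11% of vestibular macrophage-like cells, at median depths of 3952, 2732, 4757, 10373, 2534 and 2767 UMIs. With each cell thinned to 1000 UMIs, the shares were 77.2%, 46.8%, 14.3% and 0% in the HC types and 0% and 1.92% in the macrophage-like cells. The share in IHCs is thus at the level of background, and the 33 cHCs of unnamed type held no Atp2b2 UMI, which allows up to 9.09% of cells with a UMI. Among the named populations outside HCs, the highest level was in the neuron-like cells of the cochlea (516 ± 95.4 CPM). Their libraries ranged from 424 to 641 CPM and overlapped those of OHCs. The unnamed cochlear clusters were not ranked. They had an Atp2b2 UMI in 53.8%, 56.2%, 19.2%, 5.31% and 4.62% of cells (28.0%, 12.9%, 10.9%, 2.655% and 2.94% after thinning).

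Atp2b1, which was widely detected, ran in another order. In IHCs it was 748 CPM in replicate 3 and 693 CPM in replicate 4, the libraries with at least 5 IHCs. The single IHC of replicate 1 (255 CPM) and the 4 of replicate 5 (1145 CPM) fall outside the mean. In type II HCs Atp2b1 was 431, 598, 708 and 458 CPM (549 ± 129), in OHCs 219, 275, 401 and 276 CPM (293 ± 77.1), and in type I HCs 147, 132, 142 and 162 CPM. IHCs and type II HCs overlapped, OHCs lay below both, and type I HCs lay below OHCs without overlap. The highest Atp2b1 of all named populations was in marginal or dark cell-like cells of the vestibule, the potassium-secreting epithelium, with 966, 1094, 1352 and 1679 CPM (1273 ± 315), above every library with at least 5 cells of the other named populations. Supporting cell-like cells followed the type II HCs, with 396 ± 40.8 CPM in the vestibule and 324 ± 32.2 CPM in the cochlea.

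Summed over the 4 plasma membrane pumps, type I HCs held 1883 ± 179 CPM, OHCs 1136 ± 276, type II HCs 812 ± 124 and IHCs 737 ± 24.9 (n = 2). Atp2b2 supplied 89.4% ± 0.824 of these UMIs in type I HCs, 73.6% ± 6.31 in OHCs, 29.6% ± 8.24 in type II HCs and 2.02% ± 2.28 in IHCs. Atp2b1 supplied 7.76% ± 0.727, 26.4% ± 6.31, 67.3% ± 8.96 and 97.8% ± 1.99 in the same order. The share of Atp2b2 did not overlap between any of the 4 types, though OHC shares rest on 40 to 93 UMIs per library.

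**Figure D1:**
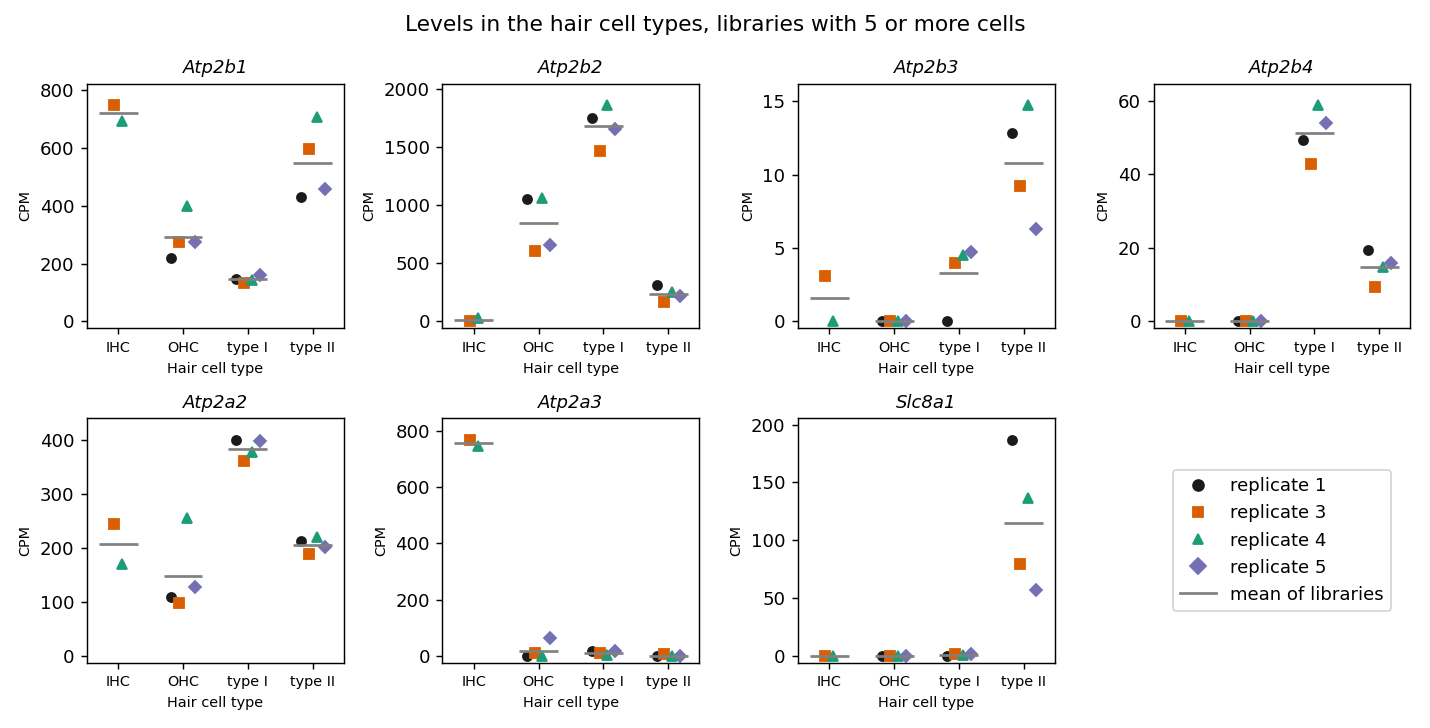
Level (CPM, y axis) of each of the 7 genes in inner (IHC), outer (OHC), type I and type II hair cells (x axis), with 1 symbol per library and a grey line at the mean. Atp2b2 is highest in type I HCs and next in OHCs, Atp2b1 in IHCs and type II HCs, Atp2a3 in IHCs, and Slc8a1 in type II HCs.

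**Figure D2:**
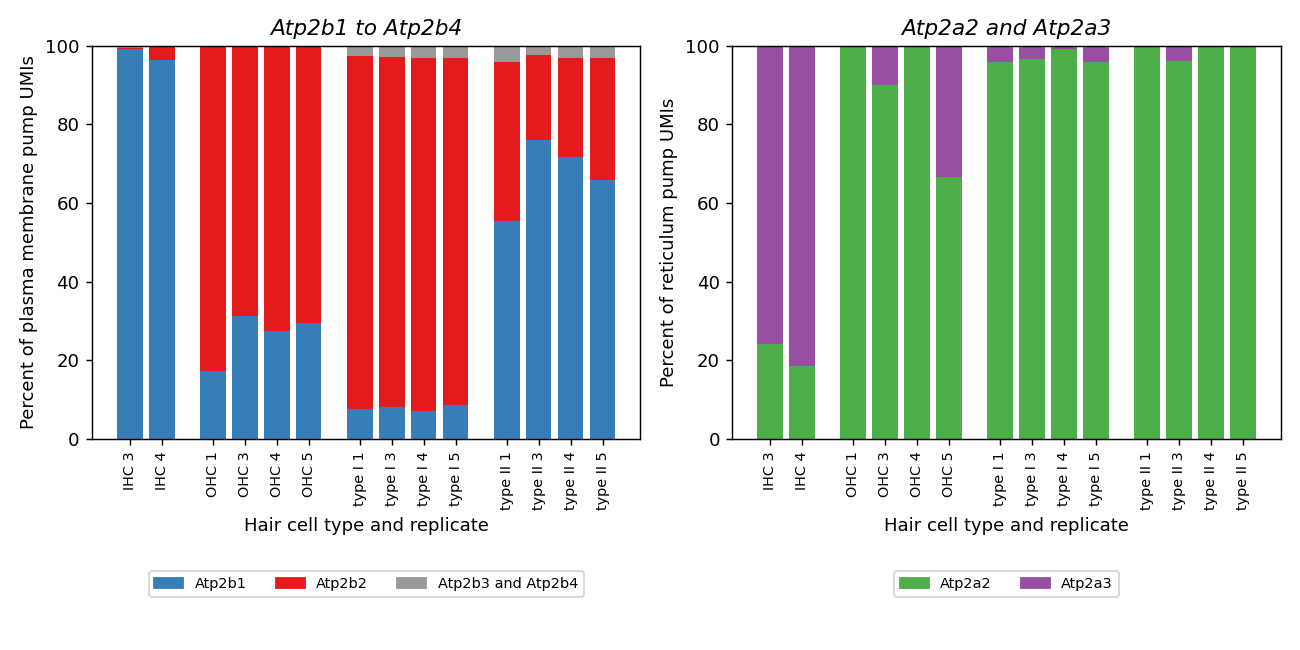
Percent of the UMIs of the 4 plasma membrane pumps (left) and of the 2 reticulum pumps (right) that each gene supplied, 1 bar per library with at least 5 cells of the type. Atp2b2 makes up 88.3 to 90.04% of the left bars in type I HCs and 0.415 to 3.64% in IHCs, and Atp2a3 makes up 75.8 and 81.4% of the right bars in IHCs.

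Atp2b4 and Atp2b3 were low in every HC type. Atp2b4 was 49.4, 42.7, 58.8 and 53.8 CPM in type I HCs (51.2 ± 6.81) and 19.3, 9.23, 14.7 and 15.8 CPM in type II HCs, without overlap, and had a UMI in 16.2% of type I and 6.23% of type II HCs. Vestibular macrophage-like cells had one in 4.66% of cells, and after thinning the 3 shares were 4.80%, 1.83% and 1.096%. No cHC of 152 held an Atp2b4 UMI, which allows up to 1.97% of cells with a UMI and sets no limit on cells that express the gene. Among the 23 named populations its highest means were in T or NK cell-like cells (111 ± 71.3 CPM in the cochlea, 84.1 ± 23.5 CPM in the vestibule), whose ranges overlapped that of type I HCs in the cochlea only. Atp2b3, a pump known mainly from neurons, was highest of these populations in the neuron-like cells (50.6, 46.7, 86.5 and 29.1 CPM), followed by type II HCs (10.8 ± 3.76 CPM, 14 UMIs) and type I HCs (3.31 ± 2.23 CPM, 23 UMIs). The cHCs held 1 Atp2b3 UMI.

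Of the reticulum pumps, Atp2a2 was found in every HC type and Atp2a3 chiefly in IHCs. Among the 23 named populations, Atp2a2 was highest in the neuron-like cells (664 ± 119 CPM), and then in type I HCs, where it was 400, 361, 378 and 398 CPM (384 ± 18.2). In type II HCs it was 212.5, 189, 221 and 202 CPM, in IHCs 244 and 170 CPM, and in OHCs 109, 99.2, 255 and 127 CPM. Type I HCs lay above the other HC types in all libraries, while type II HCs, IHCs and OHCs overlapped.

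Atp2a3 was 767 and 745 CPM in IHCs of replicates 3 and 4, and 1488 CPM in the 4 IHCs of replicate 5. These values lay above every other named population, the next being vestibular B cell-like cells (118 ± 111 CPM, up to 279 CPM). In OHCs it was 0, 11.02, 0 and 63.6 CPM, in type I HCs 17.0, 12.4, 3.01 and 17.0 CPM, and in type II HCs 0, 7.69, 0 and 0 CPM. Atp2a3 had a UMI in 41 of 42 IHCs (97.6%, 95% exact binomial interval 87.4 to 99.9%) and in 3 of 77 OHCs (3.90%, 0.811 to 10.97%), against 3.14% of cochlear macrophage-like cells. After thinning, 54.8% of IHCs, 2.60% of OHCs and 0.448% of macrophage-like cells kept one. Atp2a3 made up 75.8% and 81.4% of reticulum pump UMIs in IHCs and 3.07% ± 1.56 in type I HCs. The 33 cHCs of unnamed type held 19 Atp2a3 UMIs, in 27.3% of cells, and the 70 mixed cochlear cells that were left out had 748 ± 229 CPM.

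Among the 23 named populations Slc8a1 was highest in type II HCs, with 187, 80.0, 136 and 56.9 CPM (115 ± 58.3), against 0, 1.67, 0.754 and 1.89 CPM in type I HCs. It had a UMI in 22.0% of type II and 0.533% of type I HCs, and in 7.33% and 0.200% after thinning. Macrophage-like cells carried the gene themselves (49.3 ± 17.2 CPM in the cochlea, 36.4 ± 21.6 CPM in the vestibule), so type I HCs serve as the background here. No UMI of Slc8a1 was found in the 152 cHCs, nor in the 70 mixed cochlear cells (up to 4.29%).

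**Figure D3:**
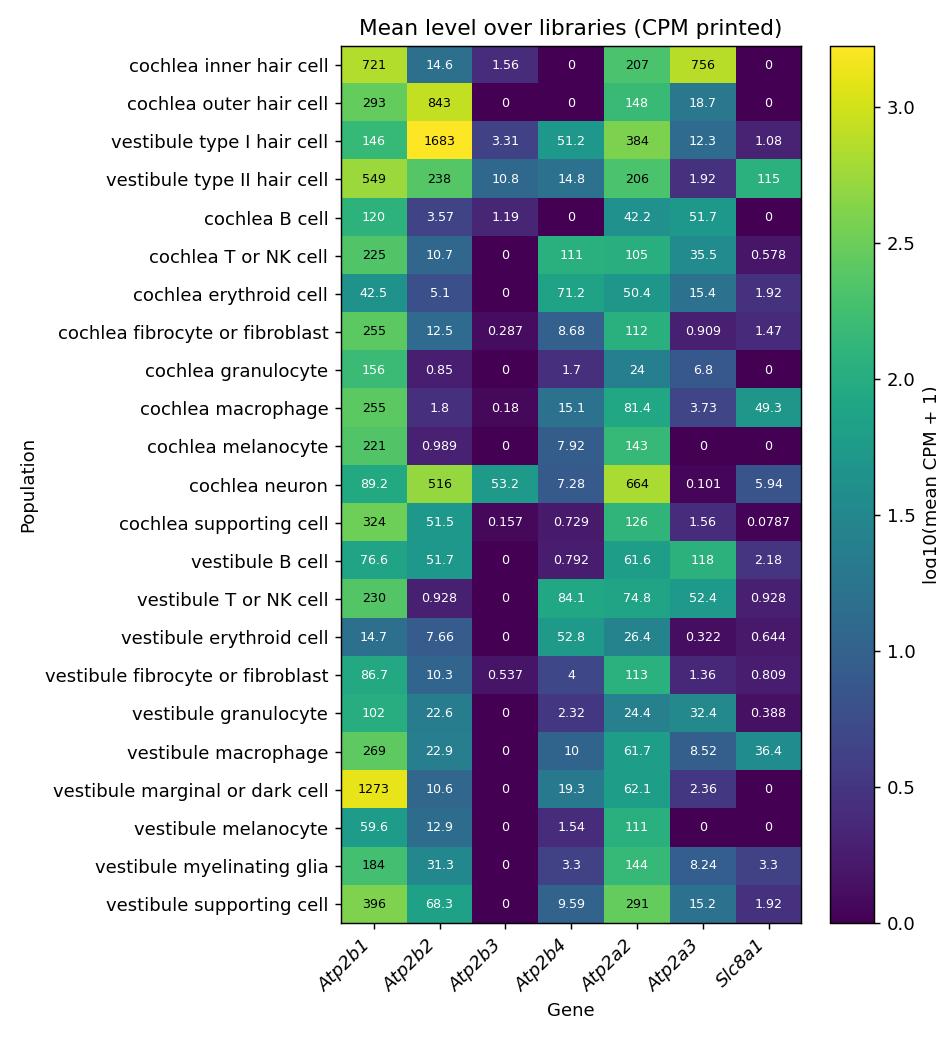
Mean level of each gene (x axis) in the 23 named populations (y axis), coloured by log10(mean CPM + 1) with the mean CPM printed. Atp2b1, Atp2b2 and Atp2a2 are detected in all 23 populations, Atp2b2 at as few as 1 UMI. Atp2a3 stands at 756 CPM in inner hair cells and at no more than 118 CPM elsewhere.

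Within the vestibule the genes also varied among subclusters of 1 type. Slc8a1 was 508, 209, 241 and 329 CPM (322 ± 134) in the smaller type II subcluster of 61 cells, and 37.7, 33.5, 47.7 and 7.46 CPM (31.6 ± 17.1) in the larger one of 212 cells. The ranges did not overlap, and a UMI was found in 59.0% and 11.3% of cells (21.3% and 3.30% after thinning). The smaller subcluster was led by Zp3, Slc8a1 itself and Pkhd1l1, and Ocm, the calcium buffer oncomodulin, had a UMI in 60.7% of its cells against 14.6% of the larger. Atp2b1 was 631 ± 140 CPM in the smaller and 512 ± 114 CPM in the larger type II subcluster, with overlapping ranges.

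Among type I HCs, Atp2a3 was 73.0, 70.6, 17.7 and 65.7 CPM in the subcluster of 269 cells led by Ano2, Olfm4, Ocm and Calb1, which carried a UMI in 14.9% of cells (5.20% after thinning, against 1.92% of vestibular macrophage-like cells). The 3 other type I subclusters present in all libraries ranged from 0 to 13.3 CPM. The same subcluster had the lowest Atp2b2 (1235 ± 149 CPM), Atp2b1 (68.2 ± 13.6 CPM) and Atp2a2 (182 ± 50.6 CPM) means of the type I subclusters. Atp2b2 was highest, at 2705 ± 313 CPM (2383 to 3093 CPM), in a subcluster of 229 cells whose median depth was 1563 UMIs and whose median mitochondrial share was 14.1%, against 3822 to 7970 UMIs and 3.73 to 7.41% in the other type I subclusters. The part of depth and mitochondrial share in that level was not tested.

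**Figure D4:**
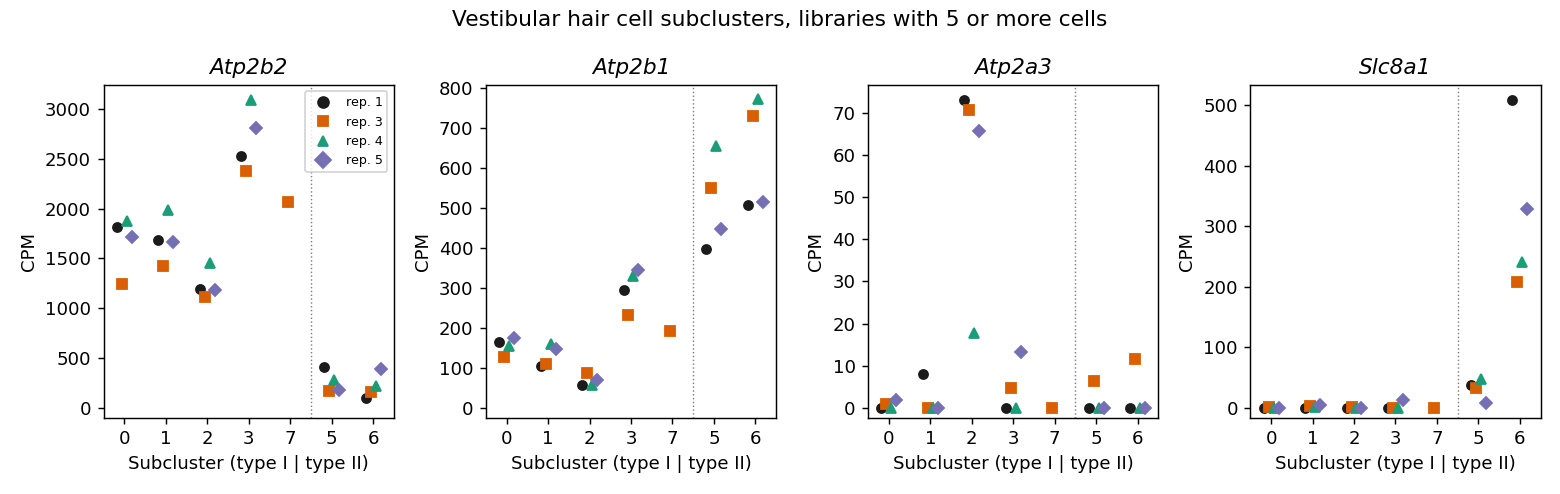
Level (CPM, y axis) of Atp2b2, Atp2b1, Atp2a3 and Slc8a1 in vestibular hair cell subclusters (x axis, type I to the left and type II to the right of the dotted line), with 1 symbol per library holding at least 5 cells. Slc8a1 reaches 209 to 508 CPM in type II subcluster 6, and Atp2a3 17.7 to 73.0 CPM in type I subcluster 2.

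The organs are the groups that the labels give, and old cHCs were compared with old vHCs over libraries to ask which of the genes differ between them. The UMIs of the HCs of each library were summed and tested with edgeR's quasi-likelihood test and Benjamini-Hochberg adjustment over the 7662 genes that passed its filter on low counts, of which 2323 were called at an adjusted p under 0.05 (percent called 30.3). Of the 7 genes, 5 passed the filter and all 5 were called, 2 higher in cHCs (as were 12.2% of all genes tested) and 3 higher in vHCs (18.2%). The genes were chosen with these levels known, so nothing is read from that count. The adjusted p-values of single genes below carry the same limit and are not independent evidence of an organ difference. The cHC sums differed in make-up: OHCs gave 94.9% of the UMIs in replicate 1, where 24 of 25 cHCs were OHCs, and 19.9%, 26.1% and 36.9% in replicates 3, 4 and 5, where IHCs gave 70.1%, 72.8% and 41%. The vHC sums were alike, with 77.0 to 83.0% from type I HCs. A difference in HC type and a difference in level within a type cannot be told apart in these sums.

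Atp2b2 was 999, 123, 295 and 242 CPM in cHCs and 1476, 1233, 1586 and 1324 CPM in vHCs of replicates 1, 3, 4 and 5. All vHC libraries lay above all cHC libraries, of which replicate 1 was the highest. The log2 difference, cochlea minus vestibule, was -1.90 ± 0.40 (SE; adjusted p = 0.000725, edgeR). Without cochlear replicate 1 it was -2.77, and with OHCs alone on the cochlear side it was -0.81 (adjusted p = 0.0131).

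Atp2b4 and Slc8a1 were found in vHCs alone. Atp2b4 was 43.6, 36.8, 51.3 and 45.1 CPM in vHCs (313 UMIs in all) against 0 UMIs in cHCs. Set against 3 counts over the 765942 UMIs of the cHCs, or 3.92 CPM, its pooled level of 42.2 CPM was at least 10.8-fold higher in vHCs. It passed the filter through the vHC libraries alone, so its call is not read as a test. Slc8a1 was 36.1, 15.6, 23.8 and 14.5 CPM in vHCs (144 UMIs, 19.4 CPM pooled), at least 4.95-fold higher than that floor. It did not pass the filter and was not tested, and neither was Atp2b3, at 37 UMIs in vHCs and 1 in cHCs.

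Atp2a2 was 104, 206, 190.5 and 180 CPM in cHCs and 364, 331, 351 and 352.5 CPM in vHCs, without overlap. The log2 difference was -0.92 ± 0.22 (adjusted p = 0.00242, edgeR). With OHCs set against type I HCs the fitted value was -1.60, a contrast of HC types given as a description.

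Atp2b1 was 220.5, 590, 610 and 594 CPM in cHCs and 202, 215, 238 and 230 CPM in vHCs. Cochlear replicate 1 fell among the vHC libraries and the other 3 lay above them. The log2 difference was 1.26 ± 0.25 (adjusted p = 0.00036, edgeR). With OHCs alone on the cochlear side it was 0.29 and no longer called (adjusted p = 0.431). OHCs against type I HCs gave a fitted value of 0.90, again as a description.

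Atp2a3 was 77.8, 568, 543 and 680 CPM in cHCs and 13.7, 11.5, 2.50 and 13.1 CPM in vHCs. All cHC libraries lay above all vHC libraries, and replicate 1, in which the only IHC held all 6 of its Atp2a3 UMIs, was the lowest of them. The fitted log2 difference was 5.63 ± 0.42. Atp2a3 passed the filter through the cHC libraries alone, so its call is not read as a test. With OHCs alone, or with the mitochondrial limit at 10%, Atp2a3 did not pass the filter and was not tested. The median mitochondrial share was 13.1% in IHCs, 11.1% in OHCs and 3.79% in cHCs of unnamed type. It was 3.73 to 14.1% in the type I subclusters and 5.11 and 6.34% in the type II subclusters. The part of mitochondrial share in the Atp2a3 difference was not tested.

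**Figure D5:**
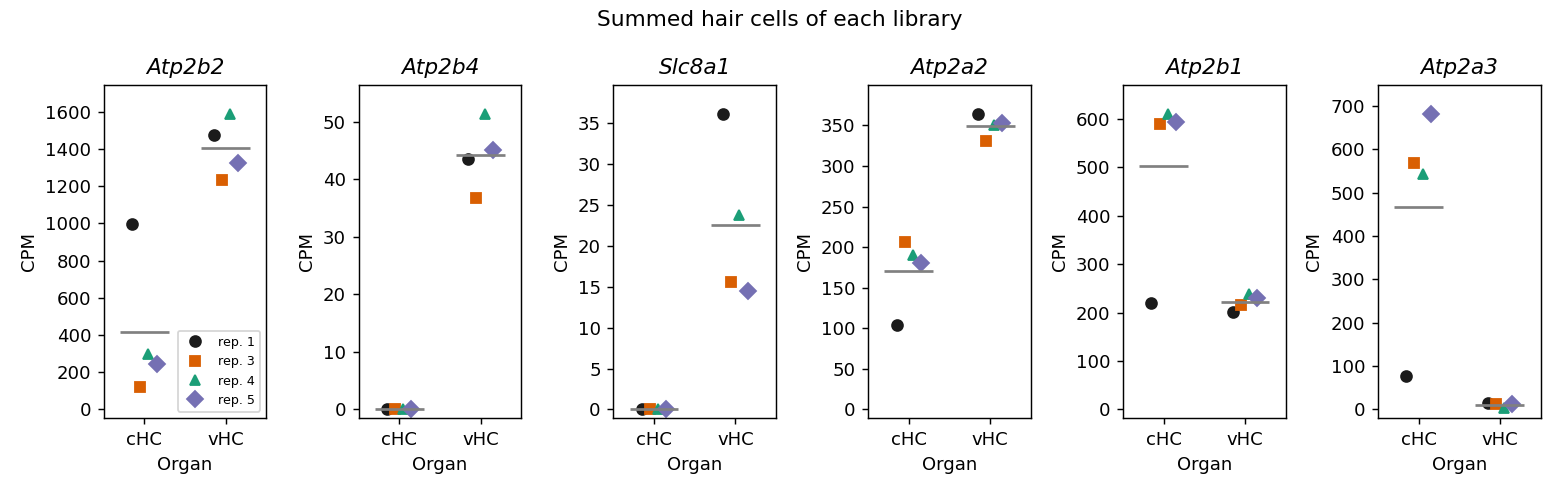
Level (CPM, y axis) of 6 of the genes in the summed cochlear (cHC) and vestibular (vHC) hair cells, with 1 symbol per library and a grey line at the mean. Cochlear replicate 1, nearly all outer hair cells, stands apart from the other cochlear libraries in Atp2b2 (999 CPM), Atp2b1 (220.5 CPM) and Atp2a3 (77.8 CPM).

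Markers of other classes were summed in the same HCs, of which 10 are given. The 6 supporting cell markers summed to 74.6 to 104 CPM in cHCs and 151 to 191 CPM in vHCs, with 1 marker at 0 in each organ. The 6 macrophage markers summed to 0 to 6.58 CPM and 2.49 to 13.4 CPM, with 4 of them at 0 in cHCs and 0 of them in vHCs. The 6 erythroid markers summed to 0 to 8017 CPM and 98.4 to 2210 CPM, and the 6 T or NK cell markers, the class with the highest Atp2b4, to 0 CPM in cHCs and 0 to 2.74 CPM in vHCs. The 6 neuron markers, of a class that carried much Atp2b2 and Atp2a2, summed to 133 to 182 CPM in cHCs, with 3 at 0, and to 1290 to 1843 CPM in vHCs, with 1 at 0. The 6 fibroblast markers summed to 38.1 to 594 CPM and 26.2 to 63.9 CPM, with 2 and 0 of them at 0. The 6 endothelial markers summed to 46.9 to 77.8 CPM in cHCs and 4.12 to 6.54 CPM in vHCs, and the 6 myelinating glia markers to 23.5 to 252 CPM and 13.8 to 43.8 CPM. The 5 fibrocyte markers summed to 57.1 to 311 CPM in cHCs and 266.5 to 859 CPM in vHCs, and the 5 chondrocyte markers to 0 to 19.7 CPM and 26.9 to 88.6 CPM. Their part in the organ differences was not tested.

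In other classes 1 to 3 of the 7 genes passed the filter, and the classes were not compared with each other except as given below for macrophage-like cells. The supporting cell and the fibrocyte or fibroblast class each pool several clusters, which were not matched between the organs. A difference in their make-up and a difference in level within a cell type cannot be told apart. In supporting cell-like cells (percent called 29.4, of which 13.3 higher in the cochlea and 16.1 in the vestibule), Atp2a2 was 176, 100.1, 128 and 101 CPM in the cochlea and 346, 232, 249 and 337 CPM in the vestibule, without overlap (log2 difference -1.09 ± 0.21, adjusted p = 0.00052, edgeR). Atp2b1 and Atp2b2 differed by -0.18 ± 0.18 and -0.32 ± 0.26 there (adjusted p = 0.521 and 0.396). In fibrocyte or fibroblast-like cells (percent called 17.7, of which 9.05 higher in the cochlea and 8.66 in the vestibule), Atp2b1 was 254, 246, 310 and 212 CPM in the cochlea and 80.8, 81.5, 97.2 and 87.3 CPM in the vestibule, without overlap (log2 difference 1.30 ± 0.18, adjusted p = 5.04e-05, edgeR). Atp2a2 differed by -0.33 ± 0.19 in these cells (adjusted p = 0.293). In granulocyte-like cells (percent called 0.626) Atp2b1 was at 1.25 ± 0.59, and in T or NK cell-like cells (percent called 0) at -0.06 ± 0.31, with adjusted p of 0.305 and 1.0. In erythroid cells (percent called 6.52, with 4.83 higher in the cochlea and 1.69 in the vestibule) Atp2b4 was at -0.70 ± 0.49 (adjusted p = 0.457).

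Macrophage-like cells (percent called 1.03, with 0.578 higher in the cochlea and 0.45 in the vestibule) were used as a class of both organs that is not part of the sensory epithelium proper. Atp2b1 differed there by 0.14 ± 0.28, Atp2a2 by 0.34 ± 0.30 and Slc8a1 by 0.85 ± 0.35 on the log2 scale (adjusted p = 0.93, 0.756 and 0.309, edgeR), and no difference was detectable at this depth. When the organ effects of HCs and macrophage-like cells were set against each other, with the library as a block (percent called 10.3), nothing was read for Atp2b4 and Slc8a1, of which cHCs held no UMI, or for Atp2a3, which did not pass the filter in macrophage-like cells. The differences for Atp2b1 (1.05 ± 0.37, adjusted p = 0.0457) and Atp2a2 (-1.17 ± 0.40, adjusted p = 0.0392) were lost in 6 and 5 of the 8 fits that left out 1 library, with adjusted p up to 0.459 (without cochlear replicate 3) and 0.25 (without cochlear replicate 1). The Atp2b2 effects were not shown to differ (-0.71 ± 0.77, adjusted p = 0.697).

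The organ comparison of HCs was also read for genes that act beside these pumps, where 30.3% of all genes tested were called. Among 11 other calcium pumps and exchangers, 2 passed the filter. Atp2c1, the secretory pathway calcium pump of the Golgi, was 51.9, 6.58, 19.1 and 23.5 CPM in cHCs (12 UMIs) and 97.1, 73.8, 79.5 and 68.3 CPM in vHCs. Its fitted log2 difference was -2.21 ± 0.40, and the exchanger Slc8a2 was at -0.05 ± 0.33. Of 9 partners and regulators, 7 passed the filter, with a median log2 difference of -0.07, against -0.08 over all genes tested, and 2 were called lower in cHCs. Slc9a3r2 and Slc9a3r1, PDZ scaffold genes, had fitted log2 differences of -2.98 ± 0.32 and -1.88 ± 0.52, with 21 and 6 UMIs in cHCs. Atp2c1, Slc9a3r2 and Slc9a3r1 passed the filter through the vHC libraries alone, so their calls are not read as tests. Nptn, the neuroplastin subunit of these pumps, was at -0.01 ± 0.22 (adjusted p = 0.984).

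Of 16 calcium entry and store release channels, 6 passed the filter, with 1 higher, 1 lower and 4 not called (median -0.06). Cacna1d, the channel of the HC ribbon synapse, was 752, 278.5, 562 and 461 CPM in cHCs and 147, 105, 111 and 141 CPM in vHCs, without overlap (log2 difference 1.97 ± 0.25, adjusted p = 1.53e-06, edgeR). By type it was 944 ± 499 CPM in OHCs, 191 ± 30.3 in IHCs (n = 2), 144 ± 15.1 in type II HCs and 122.5 ± 28.5 in type I HCs. Ryr2, a store release channel, had a fitted log2 difference of -1.15 ± 0.43, on 18 UMIs in cHCs. Cochlear replicate 1, the OHC library, was at 90.8 CPM (7 UMIs) and above all vHC libraries (46.1 to 59.6 CPM). Ryr2 passed the filter through the vHC libraries alone, so its call is not read as a test. Of 7 genes of mitochondrial calcium uptake, 6 passed the filter, 0 were higher and 2 were lower in cHCs (median -0.14). These were Mcub, the inhibitory pore subunit (-1.79 ± 0.37, 15 UMIs in cHCs), and Micu3, a gatekeeper (-0.90 ± 0.26, adjusted p = 0.00874, edgeR). Mcub passed the filter through the vHC libraries alone, so its call is not read as a test.

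The genes most like each pump were found by Pearson's r of mean log2(CPM + 1) over the 23 named populations, among 13492 genes with at least 20 CPM in one of them. These values are a description, since the populations share libraries and depth. For Atp2b2 they were Gm44167 (r = 0.894), Ryr2 (0.871) and Cpne9 (0.869). Gm44167 is annotated inside an intron of Atp2b2 on the same strand, chr6:113797807-113799684, so its reads and intronic Atp2b2 reads cannot be told apart by position alone. Its level was 36.4 to 46.7 CPM in type I HCs and 0 to 14.7 CPM in type II HCs. For Atp2a2 they were Zdhhc21 (0.913), Ogfod1 (0.90) and Ttc3 (0.899), and for Atp2b3 they were Clec18a (0.938), Svop (0.937) and Syn1 (0.93), the latter pair being synaptic vesicle genes. For Atp2b1 they were Ier3ip1 (0.802), Pfdn5 (0.786) and Map2k1 (0.781), and for Atp2b4 Irgm2 (0.701), Mcph1 (0.682) and Gstp3 (0.677). Atp2a3 ran closest to Exoc6 (0.763), Limd2 (0.762) and Nrgn (0.761), and Slc8a1 to E230029C05Rik (0.749), 2610203C22Rik (0.74) and Galnt9 (0.73).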

How the data were processed

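The authors deposited raw UMI counts per gene and cell barcode, made with Cell Ranger against mm10 and not normalized. The headers name version 5.0.1 in replicates 1 and 2 of each organ, elsewhere 6.1.2, the version in the submitters' processing notes. Replicate 2 was left out, since it held the cells of replicate 1. The genes and gene lists were chosen with earlier results of these data known. Cells were clustered per organ in Seurat 5.3.0 (2000 variable genes, 30 principal components, resolution 1, HCs again at 0.5), and the rules for mixed and unnamed clusters were set after the clusters were seen. HC types are type II where Sox2 was found in more cells than Adam11, otherwise type I, and IHC or OHC by the number of their markers found in 25% of cells. Doublets were not called, so mixed clusters were left out instead. Tests used edgeR 4.0.16 on counts summed per library with TMM factors. Tested on simulated data (7293 genes, of which 191 had a log2 change of 2), the HC organ test called 86.4% of those changed, and 5.71% of its calls were false. The simulation gave all genes the same dispersion and left out the differing HC make-up of the libraries, so these rates need not hold for the real data. DESeq2 1.42.0 was an alternative. The libraries are pools of mice, so p-values measure the spread between pools. Intervals and limits at 0 counts cover counting error only.

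Genes were named by rule: the 7 genes, up to 3 genes past 0.05 in each direction from each list, and the 3 most alike per gene. The lists cover other pumps and exchangers, partners, channels and mitochondrial uptake. Correlations of deviations between equally numbered HC libraries of both organs were 0.057, 0.055, 0.105 and 0.0352. Between unequally numbered ones they ran from -0.063 to 0.0357. The labels do not state whether the numbers pair the libraries. The main organ tests left them unpaired, and a replicate block was run as an alternative. Some sequences and 1 gene that this rule names are not reported here.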

Additional observations from a re-analysis of the deposited data

Results flagged for a closer look

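In groups of 4 libraries, 62 sets of levels were checked for 1 library far from the others, and 9 were found. Chance flags about 1 in 20 where levels are normally spread. A set at 0 in all libraries but 1 is always flagged, so the 9 are not set against that rate. In cHCs of cochlear replicate 1, Atp2b1 was 220.5 CPM against 590 to 610 CPM in the others, in the library whose cHCs were nearly all OHCs. In vestibular macrophage-like cells of replicate 1, Atp2b1 was 440 CPM (13 UMIs in 10 cells) against 204.5 to 219 CPM. In vestibular macrophage-like cells of replicate 4, Atp2b2 was 82.1 CPM against 0 to 9.43 CPM, and in cochlear macrophage-like cells of replicate 3 it was 7.22 CPM against 0. Atp2b2 was also 42.4 CPM in marginal or dark cell-like cells of vestibular replicate 3 (9 UMIs) and 0 in the others. Atp2b4 was 55.5 CPM in cochlear macrophage-like cells of replicate 1 (10 UMIs) against 0 to 5.05 CPM, and 0 in cochlear supporting cell-like cells of replicate 1 against 0.931 to 1.04 CPM. Atp2a3 was 7.69 CPM in type II HCs of replicate 3 (5 UMIs) and 0 in the others, and Atp2b3 was 0 in type I HCs of replicate 1 against 4.01 to 4.72 CPM.

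The difference between the organ effect in HCs and that in macrophage-like cells had an adjusted p under 0.05 (edgeR, Benjamini-Hochberg) for Atp2b1 (adjusted p = 0.0457), Atp2b4 (0.000682), Atp2a2 (0.0392), Atp2a3 (3.16e-13) and Slc8a1 (5.8e-05). The values for Atp2b1 and Atp2a2 lost the call in 6 and 5 of 8 fits that left out 1 library (adjusted p up to 0.459 and 0.25), and that for Atp2b4 in 1 (0.0573, without cochlear replicate 1). Atp2b4 and Slc8a1 had no UMI in cHCs, and Atp2a3 did not pass the filter in macrophage-like cells, so these 3 are not read as tests.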

How the results depend on the processing

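For the organ comparison of HCs, the called genes numbered 1928 to 2765 when single libraries were left out and 1370 with a mitochondrial limit of 10%, against 2323. Atp2b1, Atp2b2 and Atp2a2 kept their direction under every alternative run, and of these only Atp2b1 lost its call, with OHCs alone (0.29). In macrophage-like cells, 32 genes were called, against 62 by DESeq2, 9 with the replicate block, and 4 to 133 with single libraries left out (133 without cochlear replicate 5, 76 without vestibular replicate 1, and 6, 5 and 4 without vestibular replicates 3, 4 and 5). In HCs the replicate block called 2200 genes and changed no call of these 3 genes. The difference of the organ effects was called for 767 genes, and for 365 to 770 with single libraries left out (365 without cochlear replicate 3, 441 without vestibular replicate 3). Its Atp2b2 value ranged from -2.31 to 5.61, reversed without cochlear replicate 3, and Atp2b2 in fibrocyte or fibroblast-like cells ranged from -0.47 to 0.66, reversed without vestibular replicate 3. Neither was called. The causes were not tested. OHCs alone, OHCs against type I HCs, mixed cells kept, cHCs without the unnamed type, and the alternatives of the last 2 comparisons were chosen after seeing the data. IHCs alone were not run, since only 2 libraries held 5. The 42 IHCs and 77 OHCs limit what can be seen of low genes in the cochlea.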
